A study of Homo sapiens with 4 samples.

Results

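A set of 10 regulators of cell death was followed across the libraries of one human airway cell line: the BCL2 family genes BCL2, BCL2L1, MCL1, BCL2A1, BAX, BAK1, BBC3 and PMAIP1, the inhibitor of apoptosis gene BIRC3, and CFLAR. They were picked out by gene symbol, as regulators of cell death, and are 10 of the 24424 gene symbols in the deposited count tables. All 10 were found in each of the 4 libraries.

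RNA was sequenced from BEAS-2B, a line of human bronchial epithelial cells immortalised with an adenovirus-SV40 hybrid virus, whose large T antigen binds the tumour suppressor p53. Its genotype is labelled wild type in all 4 groups, and each group is 1 library made from 1.3 µg of total RNA. The control cells were untreated. The LPS cells received lipopolysaccharide, a bacterial ligand of the receptor TLR4, for 2 h at a dose that the labels do not give. The siOCLN+LPS cells were transfected with siRNA targeting occludin, a tight junction protein encoded by OCLN, for 24 h before the same 2 h of LPS, and the wtOCLN+LPS cells were transfected for 24 h with wild-type occludin before LPS. No transfection is mentioned for the control or LPS cells, so that the transfection itself cannot be told apart from the siRNA or the occludin construct in any comparison between the transfected libraries and LPS.

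The BCL2 family decides whether the outer mitochondrial membrane is permeabilised and cytochrome c released. Prosurvival members (BCL2, BCL-XL from BCL2L1, MCL1 and BFL-1 from BCL2A1) bind and hold back the pore formers BAX and BAK, and BH3-only members such as PUMA, from BBC3, and NOXA, from PMAIP1, relieve that block. BIRC3 encodes cIAP2, a ubiquitin ligase at the TNF receptor, and CFLAR encodes c-FLIP, a catalytically inactive relative of caspase-8 that limits its activation at death receptors. BIRC3, CFLAR and BCL2A1 are textbook targets of the transcription factor NF-kB, which TLR4 signalling activates, whereas BBC3, PMAIP1 and BAX are textbook targets of p53.

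Each library held between 13867494 and 17500031 counts. Levels are given as CPM, the count of a gene scaled to a library total of 1000000, on which a single count is worth 0.0571 to 0.0721 CPM. OCLN was at 55.4 CPM in control, 50.4 with LPS alone, 21.0 in siOCLN+LPS and 29.7 in wtOCLN+LPS. Relative to LPS the siRNA library held 0.417 of the OCLN level (95% interval 0.366 to 0.473), and the wtOCLN+LPS-labelled library held 0.588 of it (0.524 to 0.660), against the direction its label implies. It is therefore called by its label throughout, and no comparison with it is read as one of raised occludin. Whether the counts capture RNA from the construct, and whether the label is right, was not tested. Epithelial markers were all 10 detected at 1 CPM or more in some library, with KRT7, KRT8, KRT17 and KRT18 as the most abundant, and their summed level was 2307, 2030, 3566 and 3774 CPM in the order above. EPCAM, at 1.26 to 2.67 CPM, and KRT14, at 0.458 to 1.07 CPM, were low. Of 5 fibroblast markers 2 reached 1 CPM in any library, COL1A1 at 55.2 to 62.7 CPM and PDGFRB at 12.3 to 55.4 CPM. The fibroblast list summed to 70.2, 76.7, 106 and 111 CPM in the same order. Of 10 leukocyte markers only CD68 reached 1 CPM in any library, the list summed to 5.26 to 18.2 CPM, and CD3E, MS4A1 and TYROBP were among those at 0 in all 4. FOXJ1 and SCGB1A1, which define ciliated and club cells, were also at 0.

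With 1 library per group there is no replicate check, and every statement below compares libraries, not conditions. Folds are ratios of CPM, each with an exact 95% interval from both counts by the method of Clopper and Pearson, and the interval of a single CPM is an exact Poisson interval. Both cover counting error only, not the spread between cultures. A gene was tested where it reached 1 CPM in either library, and it was counted as higher or lower where log2(CPM + 1) differed by at least 2-fold, a scale that understates the change of low genes. In bulk RNA, fewer cells expressing a gene and less RNA per cell cannot be told apart.

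The 10 genes differed widely in abundance. Between genes, levels were compared per kilobase of the longest protein-coding transcript. In control, MCL1, a short-lived prosurvival protein, was the most abundant at 347 CPM per kb, followed by BCL2L1 at 79.7, BAX at 39.0, BAK1 at 32.3, PMAIP1 at 23.4, BIRC3 at 13.6, CFLAR at 7.05, BBC3 at 4.59, BCL2 at 1.82 and BCL2A1 at 0.0609 CPM per kb. The order of BAX, BAK1 and PMAIP1 among themselves depended on the length used, since with the union of all exons BAK1 came before BAX in control. The transcript used for CFLAR, of 14672 bases, was the longest among the members. Shorter lengths, which would raise its level per kb, were not tried. In LPS, BIRC3 stood second at 180 CPM per kb, below MCL1 at 360. In both transfected libraries BIRC3 was again second, at 250 against 291 for MCL1 in siOCLN+LPS and at 259 against 274 in the wtOCLN+LPS-labelled library.

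The prosurvival genes of this line were thus mostly MCL1 and BCL2L1 at the RNA level. MCL1 held 81.0% of the summed CPM per kb of the 4 prosurvival genes in control, 84.4% with LPS alone, 78.6% in siOCLN+LPS and 75.5% in the wtOCLN+LPS-labelled library. BCL2L1 held 18.6%, 14.6%, 20.5% and 23.6%. BCL2, the founding member of the family, and BCL2A1 each held less than 1% in every library. With the union of exons as length, the share of MCL1 ran from 77.9% to 86.1%, with the same order of libraries.

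**Figure D1:**
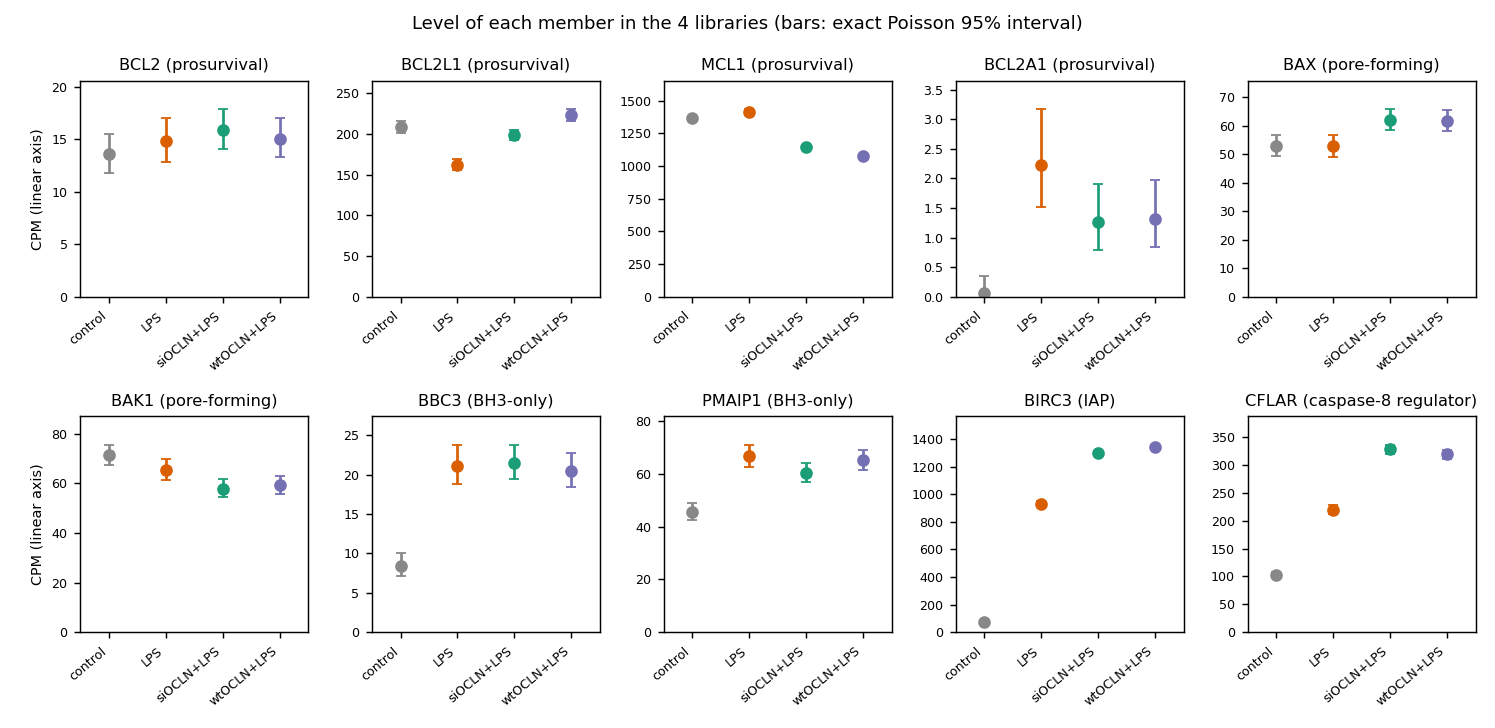
Level of each of the 10 genes in the 4 libraries, 1 panel per gene. The vertical axis is CPM on a linear scale that starts at 0 and differs between panels; points are single libraries and bars are exact Poisson 95% intervals, which are hidden by the point where the counts are high. BIRC3, CFLAR, BBC3 and BCL2A1 are lowest in control, whereas BCL2 stays between 13.6 and 15.9 CPM.

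Comparing LPS with control asks how the death machinery looked after 2 h of lipopolysaccharide in cells with no transfection. Of the 10 genes, 4 exceeded their control level by at least 2-fold (BIRC3, BCL2A1, BBC3 and CFLAR) and 0 were at least 2-fold lower. Among all 13551 genes tested, 1.6% were at least 2-fold higher and 0.207% at least 2-fold lower. BCL2A1 was among the genes tested only through its level in LPS; with a filter at 5 CPM, which leaves it out, 3 of 9 members were higher. Their median log2(CPM + 1) ratio was 0.33, against -0.09 over all genes tested. The intervals of 6 of the 10 ratios lay above 1, that of 1 lay below 1, and those of BCL2, BAX and BAK1 included 1.

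The sequences upstream of the 4 genes that were higher in LPS are shown because a promoter with an NF-kB element is the textbook route from TLR4 to such genes. They are the 250 bases before the RefSeq start on GRCh38.p14, written 5′ to 3′ on the strand of the gene, with matches to the kappa-B consensus of NF-kB, searched on both strands, in capitals. BIRC3 is at chr11:102317234-102317483 (plus strand), CFLAR at chr2:201118466-201118715 (plus strand, the first of its 4 RefSeq start windows), BCL2A1 at chr15:79971197-79971446 (minus strand) and BBC3 at chr19:47232668-47232917 (minus strand).
BIRC3: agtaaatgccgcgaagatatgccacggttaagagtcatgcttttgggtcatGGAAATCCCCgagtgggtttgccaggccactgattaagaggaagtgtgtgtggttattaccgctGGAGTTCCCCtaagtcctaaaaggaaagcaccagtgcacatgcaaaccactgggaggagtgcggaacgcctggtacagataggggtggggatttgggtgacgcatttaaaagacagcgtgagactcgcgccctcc
CFLAR: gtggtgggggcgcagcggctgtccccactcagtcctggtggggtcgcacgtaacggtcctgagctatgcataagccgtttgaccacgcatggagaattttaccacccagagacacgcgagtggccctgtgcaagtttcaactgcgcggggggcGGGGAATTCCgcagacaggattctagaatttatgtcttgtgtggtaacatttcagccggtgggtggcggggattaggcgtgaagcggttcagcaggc
BCL2A1: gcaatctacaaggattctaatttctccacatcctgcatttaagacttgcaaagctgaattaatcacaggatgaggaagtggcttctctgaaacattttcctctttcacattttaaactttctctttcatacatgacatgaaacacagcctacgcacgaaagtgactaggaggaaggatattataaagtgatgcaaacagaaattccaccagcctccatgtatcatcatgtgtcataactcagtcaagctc
BBC3: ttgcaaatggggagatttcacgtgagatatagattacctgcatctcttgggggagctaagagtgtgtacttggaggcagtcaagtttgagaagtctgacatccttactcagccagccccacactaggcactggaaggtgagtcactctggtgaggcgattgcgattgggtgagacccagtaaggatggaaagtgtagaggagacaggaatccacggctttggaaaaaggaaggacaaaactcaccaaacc

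The BIRC3 window held 2 matches, with first bases at -199 and -135 relative to the start, both reading as the consensus on the minus strand. The CFLAR window held 1 match, at -97 on the plus strand, and its other 3 start windows held none. No match lay in the windows of BCL2A1 and BBC3. The same search over 300-base windows (250 before to 50 after the start) found a match in 2 of the 13 windows of the set (15.4%), those of BIRC3 and CFLAR, and in 11.3% of 35116 RefSeq promoter windows. A match is a run of letters and not a measured binding site, and no match says nothing of elements farther away.

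BIRC3 differed most among the members with more than a few counts in control. It was at 70.9 CPM in control, 934 with LPS alone, 1300 (1299.6) in siOCLN+LPS and 1345 in the wtOCLN+LPS-labelled library, on 1126, 12951, 22713 and 23534 counts. Control was the low library, and the Poisson intervals of control and LPS were far apart. The LPS level was 13.2-fold that of control (12.4 to 14.02), which placed BIRC3 at rank 20 from the highest of the 13551 genes tested.

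CFLAR, the brake on caspase-8, was at 103 CPM in control, 220 with LPS alone, 329 in siOCLN+LPS and 319 in the wtOCLN+LPS-labelled library. It was 2.13-fold higher in LPS than in control (2.00 to 2.26), close to the 2-fold limit. Control was again lowest, and both transfected libraries lay above LPS. Counts per gene do not separate the long and short forms of c-FLIP. Of the antisense transcript CFLAR-AS1, which overlaps CFLAR in RefSeq, the libraries held 0.0721 to 0.629 CPM, so that reads assigned to it were few beside those of CFLAR.

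BBC3, which encodes the BH3-only protein PUMA, was at 8.43 CPM in control, 21.1 with LPS alone, 21.5 in siOCLN+LPS and 20.5 in the wtOCLN+LPS-labelled library. It was 2.51-fold higher in LPS than in control (2.04 to 3.10). The 3 LPS-treated libraries overlapped in their intervals and control lay below them all. PMAIP1, which encodes NOXA, the BH3-only partner of MCL1, was at 45.6, 66.7, 60.4 and 65.1 CPM in the same order. Its ratio of LPS to control was 1.46 (1.33 to 1.61), within 2-fold but with an interval above 1.

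The most abundant prosurvival genes differed little between LPS and control. MCL1 was at 1365 CPM in control, 1414 with LPS alone, 1144 in siOCLN+LPS and 1076 in the wtOCLN+LPS-labelled library, with a ratio of LPS to control of 1.04 (1.02 to 1.06). BCL2L1 was at 208, 162, 199 and 223 CPM, and was 1.28-fold lower in LPS than in control (1.22 to 1.35). It was the only member whose interval lay below 1 in that comparison, and LPS was its lowest library. BCL2 was at 13.6, 14.9, 15.9 and 15.1 CPM, and all 4 of its Poisson intervals overlapped (LPS to control 1.09, 0.898 to 1.33). Gene counts do not separate the long and short splice forms of BCL2L1 and MCL1, whose proteins have opposite roles.

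BCL2A1, a prosurvival gene best known from leukocytes and from NF-kB signalling, was nearly unread in control. It stood at 0.0629 CPM in control (1 count, interval 0.00159 to 0.351), 2.24 with LPS alone (31 counts, 1.52 to 3.17), 1.26 in siOCLN+LPS (22 counts) and 1.31 in the wtOCLN+LPS-labelled library (23 counts). The 3 LPS-treated libraries lay above control, with intervals that did not overlap that of control. On 1 and 31 counts, the ratio of LPS to control was 35.5 with a counting interval of 5.92 to 1448, and the log2(CPM + 1) ratio was 1.61. Even in LPS, BCL2A1 remained at 2.16 CPM per kb, below every other member except BCL2 at 1.99.

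By library total, the pore formers were the steadiest members after BCL2. This order depends on the scaling. Under trimmed-mean scaling BAX was 1.30- and 1.31-fold its LPS level in siOCLN+LPS and the wtOCLN+LPS-labelled library, whereas MCL1 held 0.896 and 0.854. BAX was at 52.99 CPM in control, 52.9 with LPS alone, 62.1 in siOCLN+LPS and 61.8 in the wtOCLN+LPS-labelled library, and its ratio of LPS to control was 0.999 (0.903 to 1.10). Scaling by trimmed means (TMM), median ratios or upper quartiles put that ratio at 1.06 to 1.07. BAK1 was at 71.4, 65.4, 58.0 and 59.3 CPM, with a ratio of LPS to control of 0.916 (0.838 to 1.0001). Control was its highest library and siOCLN+LPS its lowest.

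**Figure D2:**
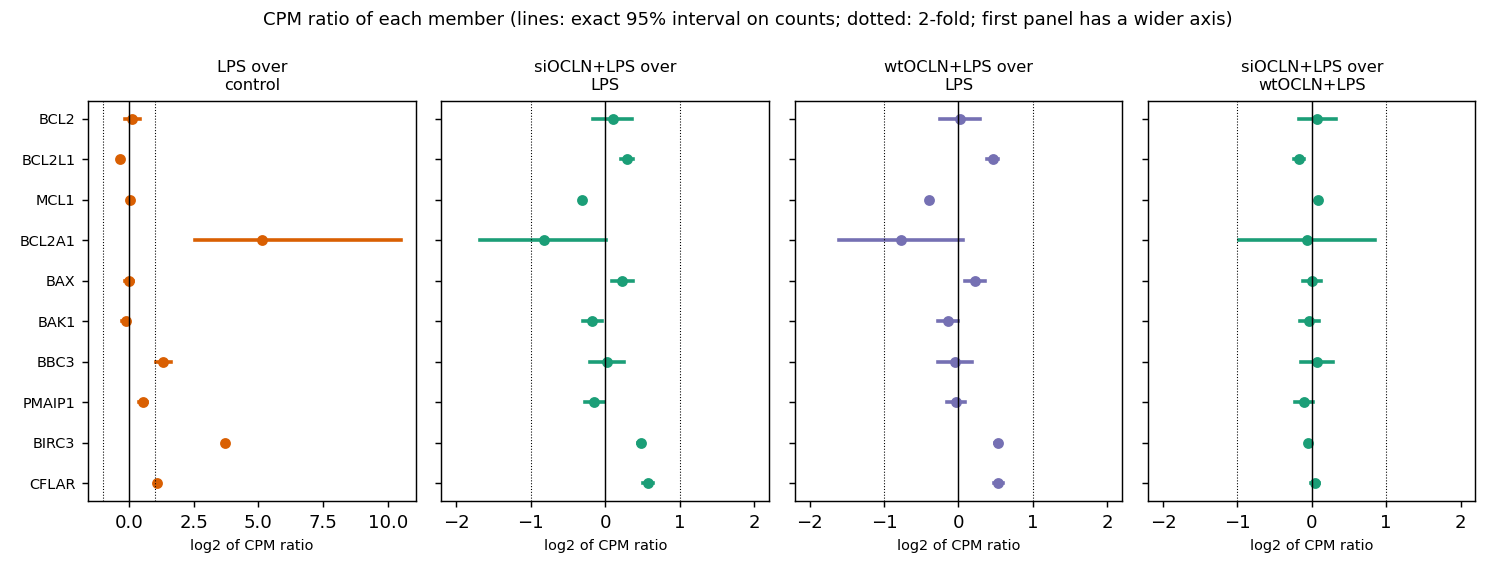
CPM ratio of each gene in 4 comparisons, on a log2 axis with no pseudocount; lines are exact 95% intervals on the counts, dotted lines mark 2-fold, and the first panel has a wider axis. In the first panel BCL2A1, BBC3, BIRC3 and CFLAR lie beyond 2-fold, with the line of BCL2A1 reaching from 5.92- to 1448-fold, and in the other panels no point lies beyond it.

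Both transfected libraries were compared with the same LPS library, so their values are set side by side and are not independent of each other. None of the 10 genes was 2-fold apart from LPS in either: 0 were higher and 0 lower in siOCLN+LPS, where 3.32% of 13505 genes were at least 2-fold higher and 3.92% at least 2-fold lower, and 0 and 0 in the wtOCLN+LPS-labelled library, where 3.32% of 13493 genes were higher and 3.69% lower. With shares this small, 10 genes would hold few such calls in any case, and a count of 0 is near the background. The median log2(CPM + 1) ratio of the 10 genes was 0.06 and -0.01, against -0.13 and -0.15 over all genes. Under TMM, median ratio or upper quartile scaling, the median of all genes lay between -0.04 and 0.01 in both, and the share of calls that were higher went from 45.9% to between 57.9% and 61.5% for siOCLN+LPS and from 47.4% to between 58.5% and 64.9% for the wtOCLN+LPS-labelled library.

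Within 2-fold, the members differed in direction by more than counting error. BIRC3 exceeded its LPS level 1.39-fold in siOCLN+LPS (1.36 to 1.42) and 1.44-fold in the wtOCLN+LPS-labelled library (1.41 to 1.47). CFLAR was 1.49-fold (1.43 to 1.56) and 1.45-fold higher (1.39 to 1.52). BCL2L1 was 1.22-fold (1.16 to 1.29) and 1.38-fold higher (1.31 to 1.45). Many genes lay as far above LPS. By rank from the highest of 13505 genes in siOCLN+LPS, CFLAR stood at 1270, BIRC3 at 1655 and BCL2L1 at 2672. In the wtOCLN+LPS-labelled library they stood at 1314, 1343 and 1582 of 13493. These 3 genes, which restrain apoptosis at the receptor or at the mitochondrion, also lay above LPS under each of the other scalings, where BIRC3 reached 1.51 to 1.62, CFLAR 1.56 to 1.65 and BCL2L1 1.32 to 1.55.

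MCL1 lay on the other side of LPS. It was 1.24-fold lower in siOCLN+LPS (1.21 to 1.26) and 1.31-fold lower in the wtOCLN+LPS-labelled library (1.29 to 1.34), and it stayed below LPS under the other scalings, at 0.875 to 0.896 and 0.819 to 0.854 of it. BCL2A1 held 0.563 of its LPS level in siOCLN+LPS (0.311 to 1.004) and 0.588 in the wtOCLN+LPS-labelled library (0.327 to 1.04), on 31, 22 and 23 counts, a difference not detectable at this depth. BCL2 was within counting error of LPS in both (1.07, 0.891 to 1.29, and 1.02, 0.843 to 1.22).

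Among the proapoptotic members, BAX was 1.17-fold higher than in LPS in both transfected libraries (1.07 to 1.29, and 1.06 to 1.28). BAK1 held 0.886 of its LPS level in siOCLN+LPS (0.809 to 0.970) and 0.907 in the wtOCLN+LPS-labelled library (0.829 to 0.992). The second of these turned to 1.02 under TMM and median ratio scaling and was 0.976 under upper quartile scaling. BBC3 (1.02 and 0.968) and PMAIP1 (0.905 and 0.977) were close to their LPS levels. Their direction in the wtOCLN+LPS-labelled library depended on the scaling, since PMAIP1 turned to 1.05 to 1.10 and BBC3 to 1.04 to 1.09 under the other scalings. In siOCLN+LPS, PMAIP1 was 1.002 of LPS under TMM and 0.979 under upper quartile scaling, and BBC3 was 1.10 to 1.13 of LPS under the other scalings.

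Set against control instead of LPS, BIRC3 was 18.3-fold higher in siOCLN+LPS (17.3 to 19.5) and 19.0-fold higher in the wtOCLN+LPS-labelled library (17.9 to 20.2), CFLAR 3.18-fold (3.01 to 3.36) and 3.09-fold (2.92 to 3.26), and BBC3 2.55-fold (2.09 to 3.13) and 2.43-fold (1.98 to 2.98). These ratios combine LPS and transfection. MCL1 held 0.838 and 0.788 of its control level, BAK1 0.811 and 0.830, and BCL2L1 0.954 and 1.07. All ratios to control given here are by library total. The TMM factor was 1.11 in control, 0.938 in siOCLN+LPS and 0.925 in the wtOCLN+LPS-labelled library. A lower factor raises the scaled level, so TMM scaling puts each of these ratios higher. How far MCL1, BAK1 and BCL2L1 lay from control thus depends on the scaling.

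The transfected libraries were close to each other for all 10 genes. In siOCLN+LPS against the wtOCLN+LPS-labelled library, 0 were at least 2-fold higher and 0 at least 2-fold lower, against 0.0763% and 0.29% of 13109 genes. For 3 genes the ratio had an interval that excluded 1: BCL2L1 at 0.889 (0.849 to 0.931), BIRC3 at 0.966 (0.949 to 0.984) and MCL1 at 1.06 (1.04 to 1.09). The widest interval was that of BCL2A1, at 0.958 (0.509 to 1.80), which leaves differences of nearly 2-fold undetected.

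**Figure D3:**
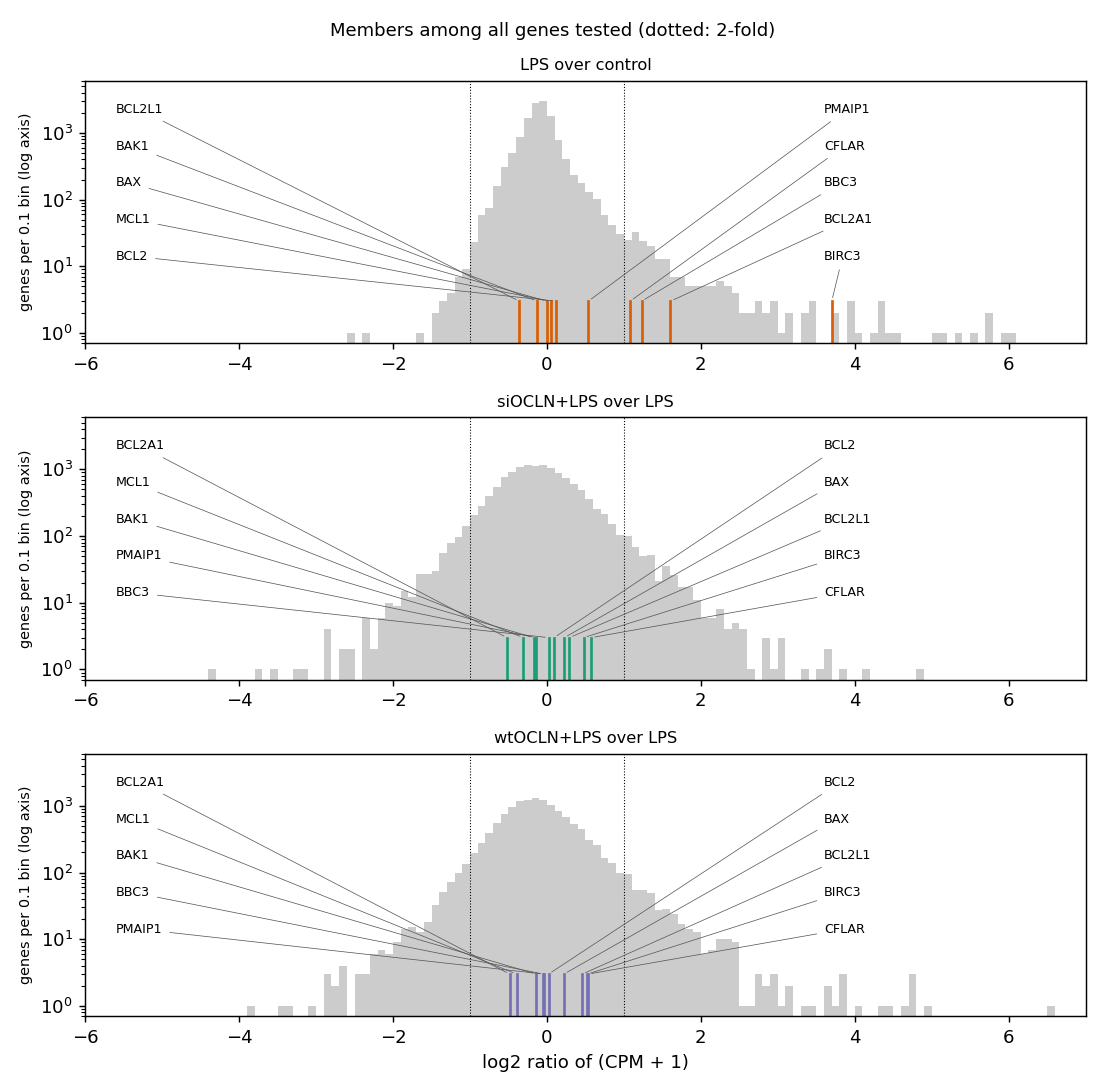
Histograms of the log2(CPM + 1) ratio over all genes tested in 3 comparisons, with the 10 genes as coloured lines; the vertical axis counts genes per 0.1 of log2 ratio on a log scale and dotted lines mark 2-fold. BIRC3, at 3.70, lies far out in the upper tail for LPS over control, and all 10 genes lie within 2-fold for the transfected libraries over LPS.

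For the 4 genes that spanned at least 1 log2 unit over the libraries, the most similar profiles were searched among 11417 genes at 5 CPM or more in any library, by Euclidean distance between mean-centred log2(CPM + 1) values. With 4 points this describes likeness only. Nearest to BIRC3 were NFKBIZ (distance 0.21), IL1A (0.35) and NFKBIA (0.36), of which NFKBIA, at 66.6, 700 (699.9), 912 and 918 CPM, encodes the inhibitor IkB-alpha. Nearest to CFLAR were GBP3 (0.14), TNFRSF6B (0.16), which encodes a decoy receptor for FAS ligand, and TRIM16 (0.17). For BCL2A1, whose low counts the pseudocount compresses, GCH1 (0.06), ETS1 (0.12) and KDM6B (0.14) were nearest on this scale only: GCH1 was at 45.8 CPM in control and 140 in LPS, a far smaller CPM ratio than that of BCL2A1. Nearest to BBC3 were ZSWIM4 (0.08), COL7A1 (0.10) and LRIG1 (0.14), with near-equal levels in the 3 LPS-treated libraries.

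BIRC3 lies next to its paralog BIRC2, which encodes cIAP1, and to YAP1. BIRC2 was at 83.3 CPM in control, 135 with LPS alone, 219 in siOCLN+LPS and 213 in the wtOCLN+LPS-labelled library. Its ratio of LPS to control was 1.62 (1.51 to 1.74), far below the 13.2 of BIRC3, whereas its ratios to LPS in the transfected libraries, 1.62 (1.54 to 1.72) and 1.58 (1.49 to 1.67), exceeded the 1.39 and 1.44 of BIRC3. YAP1 had a ratio of LPS to control of 0.976 (0.926 to 1.03). CFLAR lies in a cluster with the related CASP10, whose ratio was 1.03 (0.763 to 1.39) on levels of 3.77 to 6.35 CPM.

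The rest of the cell death pathway was read from 6 lists: other BCL2 family genes, other inhibitors of apoptosis and their antagonists, death receptors and ligands, death receptor complexes, caspases and the apoptosome, and turnover of the MCL1 and CFLAR proteins. In LPS against control, 2 of 64 tested genes (3.13%) were at least 2-fold higher, TNF and TRAF1, and 0 were lower, beside 1.6% and 0.207% of all genes, with a median log2 ratio of -0.05 against -0.09 over all genes. TNF, the cytokine whose receptor recruits cIAP2, was counted 69 times in LPS and 2 times in control, a 39.5-fold difference (10.5 to 333), and was tested only through its level in LPS. TRAF1, an adaptor of TNF receptor complexes, was 3.16-fold higher (2.37 to 4.25), at 13.1 against 4.15 CPM. Death receptors and ligands had the highest median of the 6 lists, 0.37, with 1 of 11 past 2-fold.

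Single genes of these lists came near the limit. BID, the BH3-only protein that caspase-8 cleaves, was at 64.8 CPM in LPS and 32.3 in control, a ratio of 2.00 (1.79 to 2.24) that came short of 2-fold on the log2(CPM + 1) scale at 0.98 and passed it under TMM, median ratio and upper quartile scaling. BCL2L11, which encodes BIM, held 0.624 of its control level in LPS (0.587 to 0.663). TNFRSF10B, a receptor for TRAIL, was 1.49-fold higher (1.44 to 1.54). All 11 tested genes of the caspase and apoptosome list and all 7 of the protein turnover list lay within 2-fold.

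In both transfected libraries, the same counts were found against LPS. Of 63 tested genes of the 6 lists, 3 (4.76%, beside 3.32% of all genes) were at least 2-fold higher: BMF, XAF1 and TNFSF10. The 1 lower gene was TNFRSF10D (1.59%), beside 3.92% of all genes in siOCLN+LPS and 3.69% in the wtOCLN+LPS-labelled library. Both counts are near the background. BMF, a BH3-only gene tied to loss of cell attachment, was at 6.55 CPM in control, 3.46 with LPS alone, 20.7 in siOCLN+LPS and 12.1 in the wtOCLN+LPS-labelled library. It was 5.97-fold (4.41 to 8.24) and 3.48-fold (2.54 to 4.87) higher than in LPS, and 1.71-fold higher in siOCLN+LPS than in the wtOCLN+LPS-labelled library (1.44 to 2.04).

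XAF1, which encodes a binding partner of the caspase inhibitor XIAP, was at 11.9, 7.64, 51.4 and 171 CPM in the same order. It was 6.72-fold (5.49 to 8.30) and 22.4-fold (18.5 to 27.5) higher than in LPS, and was the only gene of the 6 lists at least 2-fold apart between the transfected libraries, 3.34-fold lower in siOCLN+LPS (3.09 to 3.597). TNFSF10, the death ligand TRAIL, was 4.44-fold (3.28 to 6.13) and 6.64-fold (4.94 to 9.09) higher than in LPS. TNFRSF10D, a TRAIL receptor without a functional death domain, was 2.15-fold (1.93 to 2.39) and 2.07-fold (1.87 to 2.30) lower, and lay within 2-fold under the other scalings, under which TNF was past 2-fold in both. XIAP held 0.633 and 0.605 of its LPS level (0.580 to 0.691, and 0.554 to 0.660). FBXW7, a subunit of a ubiquitin ligase for the MCL1 protein, held 0.506 and 0.527 (0.439 to 0.582, and 0.458 to 0.605), and USP9X, a deubiquitinase of MCL1, was 1.10- and 1.09-fold higher (1.07 to 1.13, and 1.06 to 1.11).

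**Figure D4:**
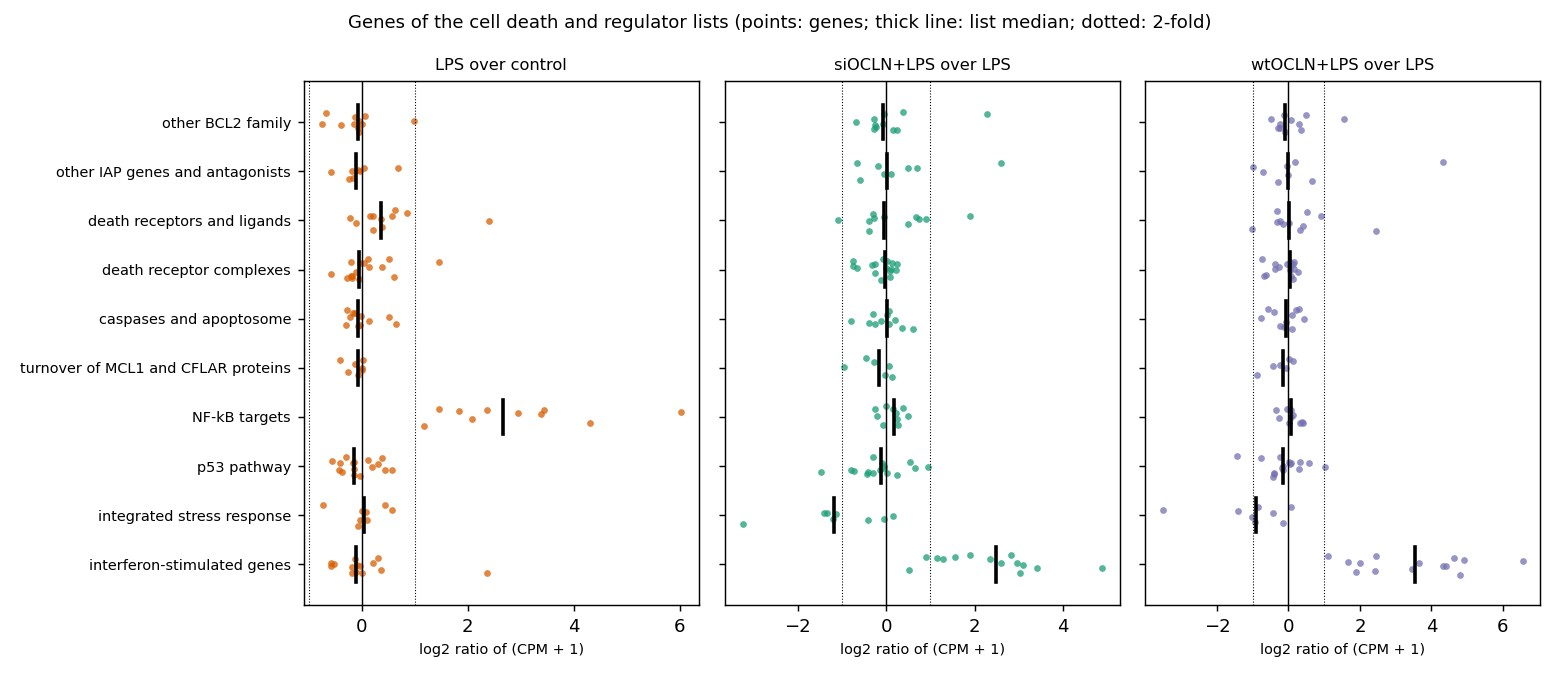
Log2(CPM + 1) ratio of every tested gene in 10 lists (rows) for 3 comparisons (panels with separate axes); points are genes, the thick black line is the list's median and dotted lines mark 2-fold. NF-kB targets lie to the right of the 2-fold line for LPS over control, with a median of 2.66, and interferon-stimulated genes do so for the transfected libraries over LPS, with medians of 2.47 and 3.55.

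A further 4 lists hold targets of regulators known to act on these genes. Of NF-kB targets other than the members, 10 of 10 tested exceeded their control level by at least 2-fold, beside 1.6% of all genes. Their median log2 ratio was 2.66, against -0.09 over all genes. The list was chosen with earlier results of these data known, so its count is not independent of them. Among the 10 were CXCL8 at 67.5-fold (61.1 to 74.8), TNFAIP3 at 20.2-fold (18.9 to 21.5), SOD2 at 11.0-fold (10.4 to 11.6) and NFKBIA at 10.5-fold (9.86 to 11.2). The 13.2 of BIRC3 lay within the range of this list, as did the 35.5 of BCL2A1 and the 2.51 of BBC3, a textbook p53 target. The 2.13 of CFLAR lay just below the lowest of the list, RELB at 2.27 (RELB was named after its value was seen). What sets the levels of these members was not tested. In the transfected libraries 0 of 10 were 2-fold apart from LPS in either direction, and the median was 0.19 and 0.07. Over all genes, 3.32% were higher in each, and 3.92% and 3.69% were lower.

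Of 16 tested p53 pathway genes, which share the textbook regulator of BBC3 and PMAIP1, 0 were at least 2-fold higher or lower in LPS than in control. Over all genes 1.6% were higher and 0.207% lower, so that a count of 0 is near the background. The median of the list was -0.15, against -0.09 over all genes. TNFRSF10B and GADD45A had log2 ratios of 0.57 and 0.44, and TIGAR and SESN1 of -0.42 and -0.56. In the transfected libraries ZMAT3 was 2.90-fold and 2.78-fold lower than in LPS, and PHLDA3, a p53-induced inhibitor of AKT, was 2.08-fold higher in the wtOCLN+LPS-labelled library and 1.95-fold in siOCLN+LPS, past 2-fold there under the other scalings. What sets the higher BBC3 level in LPS was not tested.

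Of 8 integrated stress response genes, whose factors ATF4 and CHOP (DDIT3) act on PMAIP1 and BBC3, 0 were 2-fold apart between LPS and control. Over all genes 1.6% were higher and 0.207% lower there, so that a count of 0 is near the background. Against LPS, 5 were at least 2-fold lower in siOCLN+LPS and 3 in the wtOCLN+LPS-labelled library, beside 3.92% and 3.69% of all genes. Under the other scalings the second count was 2. ASNS, an asparagine synthetase gene, was 9.77-fold and 11.7-fold lower, TRIB3 2.55-fold and 2.69-fold, and ATF3 2.39-fold and 2.08-fold. DDIT3 was 3.15-fold lower in siOCLN+LPS (2.32 to 4.32) and 1.95-fold in the wtOCLN+LPS-labelled library (1.502 to 2.55). By library total, PMAIP1 and BBC3 lay between 0.905 and 1.02 of their LPS levels in these libraries, and under the other scalings between 0.979 and 1.13. The part of the integrated stress response in their levels was not tested.

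Of 14 interferon-stimulated genes, only IRF1 exceeded its control level by at least 2-fold in LPS, at 5.201-fold (4.91 to 5.51), and 0 were lower. Over all genes 1.6% were higher and 0.207% lower. Against LPS, 12 of 14 lay at least 2-fold higher in siOCLN+LPS and 14 of 14 in the wtOCLN+LPS-labelled library, beside 3.32% of all genes in each. The median log2 ratios of the list were 2.47 and 3.55. In siOCLN+LPS, 8 of 14 were at least 2-fold lower than in the wtOCLN+LPS-labelled library, beside 0.29% of all genes. IFI27 was at 3.17 CPM with LPS alone, 121 in siOCLN+LPS and 389 in the wtOCLN+LPS-labelled library. XAF1 and TNFSF10 belong to this list as well as to the cell death lists. The levels of BIRC3 and CFLAR were, like most of this list, above LPS in both transfected libraries. Between those libraries their log2 ratios were -0.05 and 0.04, where the list's median was -1.14. IRF1, of the same list, was 2.23-fold and 2.18-fold higher than in LPS and had a log2 ratio of 0.04 between the transfected libraries. The part of the interferon-stimulated genes in the levels of the 10 genes was not tested.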

How the data were processed

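RNA-seq of BEAS-2B cells gave 4 libraries, 1 per group, grouped by the labelled treatment. The files deposited by the authors give a whole-number read count per gene symbol. TopHat, Cufflinks and hg19 appear in the submitters' processing notes with no version or role. How reads were counted, with which strand setting and annotation, is not given in the sources used here, so genes that overlap or share reads with a near-identical copy are uncertain.

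From these counts, CPM was taken with the library total. Ratios used log2(CPM + 1), genes that reached CPM 1 in one or both libraries, and a 2-fold limit. No test could be run with 1 library per group, and no p-value was computed. The ratios and intervals were tested on simulated data with counting error only and changes planted in genes at CPM 5 or more. That check does not bear on the spread between cultures or on genes as low as BCL2A1. The members and lists were chosen with earlier results of these data known. Named genes were the 10 members, OCLN, up to 4 genes per list with the largest absolute log2 ratio in a comparison, and the 3 nearest profiles of members spanning 1 log2 unit; a gene named for 1 comparison is also given in others, and neighbours of BIRC3 and CFLAR were added. Some genes that this rule names are not reported here. All 120 list memberships were found, 1 by an older symbol; some genes are in several lists. Alternatives were pseudocounts of 0, 0.1 and 5, no filter or CPM 5, limits of 1.5- and 3-fold, and TMM, median ratio and upper quartile scaling; added after seeing the data was leaving out readthrough symbols. Lengths came from GENCODE 29 and promoter sequences and gene order from RefSeq (GRCh38.p14); 9 of the 10 members had a promoter window, MCL1 none. Python 3.11.15, pandas 2.3.3, SciPy 1.17.1, and R 4.3.3 with edgeR 4.0.16 (TMM and upper quartile factors only) were used.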

Additional observations from a re-analysis of the deposited data

How the results depend on the processing

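The count of members that exceeded their control level by at least 2-fold in LPS was 4 under 8 of 11 alternatives. It was 2 with a pseudocount of 5 (BIRC3 and CFLAR) and 2 at 3-fold (BCL2A1 and BIRC3), since BBC3 and BCL2A1 are low genes and BBC3 and CFLAR lie under 3-fold, and it was 3 with a filter at CPM 5, which leaves out BCL2A1. The other 7 counts of members, lower in LPS and either direction in the other comparisons, were 0 under every alternative run. Of 88 recomputed member counts, 86 were within 1.5 times of the main count. Of 800 recomputed counts for the lists, added after seeing the data, 71 moved by more than 1.5 times. Scalings other than the library total turned the direction of BAX (LPS to control), PMAIP1, BBC3 and BAK1 (transfected libraries to LPS), as given above, and of BAX between the transfected libraries (1.004 by library total, 0.990 under TMM and 0.991 under median ratio). No paired analysis was possible because each group had 1 library. Depth limits BCL2A1, with 1 to 31 counts; the other members had at least 134 counts in each library.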
